A study of Mus musculus with 2 samples.

Results

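The genes described here encode the HP1 proteins of heterochromatin and the factors that keep retroelements silent with them. They are Cbx1, Cbx3, Cbx5, Trim28, Atrx, Daxx, Morc2a, Morc3, Mphosph8 and Pphln1, 10 of the 15127 protein-coding genes in the deposited count table, taken by symbol. The study set nascent transcription beside the three-dimensional genome, and its poly(A) RNA-seq profiled steady-state transcripts in the pSM44 line of mouse embryonic stem cells. The line is female, with 129 and castaneus strains as its parents, and in it a tetracycline-inducible promoter drives Xist, the RNA that silences an X chromosome, from its own locus on the 129 allele. The 2 libraries formed 1 group, grown in serum-free 2i/LIF medium (kinase inhibitors and the cytokine LIF) with 2 μg/mL doxycycline for 24 h. No cells without doxycycline were analysed here, so no value below measures a response to Xist.

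The counts were a single column with a total of 10017978 that names no library. The sources used here do not say whether it pools both libraries or holds 1 of them. Each gene therefore has 1 value with no replicate error, and no test between conditions was possible. The embryonic stem cell label was matched by its markers. All 8 listed markers were at a CPM (the count scaled by the column total to 1000000) of 100 or more, led per kilobase by Dppa5a, Nanog and Pou5f1, the gene for Oct4. Of 10 markers of other cells, 1 was at CPM 10 or more, the mesoderm gene T with 121 counts, and Dcn and Ptprc were not listed. Intervals on single counts are exact Poisson 95% intervals and describe counting noise alone. PCR copies of a molecule were not marked and can be counted more than once, so the intervals can be too narrow even for that noise.

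Retroelements are mobile sequences that can copy themselves into the genome, and embryonic stem cells, whose DNA methylation is low in 2i medium, hold many of them silent through histone H3 lysine-nine methylation. KRAB zinc finger proteins bind retroelement DNA and recruit Trim28, which brings the methyltransferase Setdb1. HP1 proteins bind the methylated histone through a chromodomain and compact the chromatin. The remodeller Atrx and its partner Daxx deposit the histone variant H3.3 at such sites, and the HUSH complex (Tasor, Mphosph8 and Pphln1) silences young LINE elements and other intronless inserts together with the ATPase Morc2a.

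All 10 genes were expressed, and Trim28 stood far above the others. All were at CPM 10 or more, a level that 58.9% of all listed genes reached, and 8 were at CPM 100 or more, which 15.5% of listed genes reached. At CPM 1 or more the share of listed genes was 80.1%. The 10 genes together had 28354 counts, of which Trim28 held 52.6%. Their median was 22.1 CPM per kilobase of exon (all annotated exons of a gene merged), against 3.8 over 15052 genes with a length. The sources used here do not say whether reads were counted over exons or over whole genes. The order of genes in the deposited counts follows the count per base of gene span (rho 0.9999 across genes, against 0.920 per base of exon). Which feature was counted was not tested. If introns were counted, a value per kilobase of exon is not a level per counted base, and the exon-based levels and ratios below would not hold as such. Daxx and Pphln1 were the members below CPM 100, with 74.97 and 32.9.

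**Figure D1:**
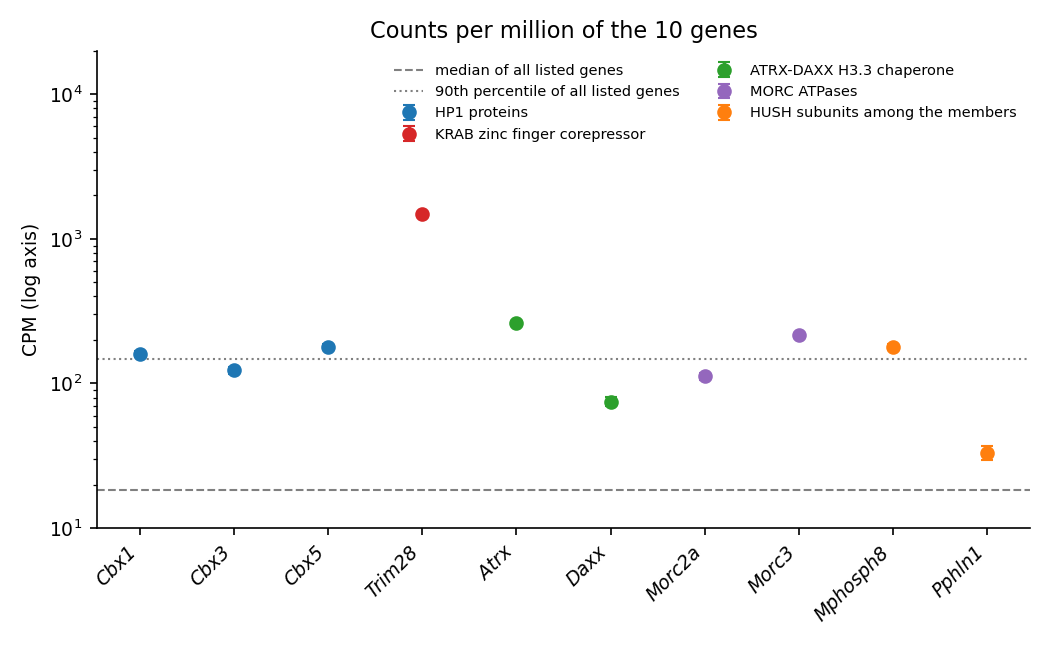
CPM (log axis) of the 10 genes in the deposited column, coloured by role, with exact Poisson 95% intervals where they exceed the symbol. Trim28, at 1489 CPM, lies above the other 9 genes, and all 10 lie above the dashed median of all listed genes (18.3 CPM).

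Trim28, also called KAP1, is the corepressor that most KRAB zinc finger proteins work through. It had 14919 counts, or 1489 CPM (Poisson 95% interval 1465 to 1513), and was number 54 by count among the 15127 genes. Per kilobase of exon its level was 358 CPM, at percentile 99.2 of all listed genes. The gene spans chromosome 7, 12999114 to 13031035, on the plus strand of GRCm38, and its coding transcript has 17 exons and 3245 bases. None of its exonic bases lies under another gene and none of the 50-base windows of its coding transcript occurs in a transcript of another gene. The zinc finger gene Zbtb45 lies inside an intron of the longest Trim28 annotation and was not listed.

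The relatives of Trim28 were expressed at much lower levels per kilobase. The TIF1 family shares a tripartite motif at the start of the protein, and Trim28 is its member tied to KRAB zinc fingers. Trim24, a nuclear receptor cofactor, had 15.03 CPM per kilobase of exon and Trim33, a regulator of Smad signalling, had 10.9. Trim66 had 0.769. Setdb1, the methyltransferase that Trim28 recruits, had 1055 counts and 15.4 CPM per kilobase, so that Trim28 exceeded it 23.3-fold (counting interval 21.9 to 24.8). The ratio was 14.1 as CPM and 14.9 per kilobase of gene span. Trim28 was above all 80 listed genes of the related lists described below, both per kilobase of exon and per kilobase of coding transcript.

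KRAB zinc finger genes with described retroelement or imprint targets ranged widely below it. Of 8 such genes 6 were listed, all 6 at CPM 1 or more and 4 at CPM 10 or more. Zfp57, which protects imprinted methylation, had 2295 counts and 60.5 CPM per kilobase of exon. Zfp568, a repressor of a placental Igf2 transcript, had 18.8, and Zfp809, which targets a retroviral primer binding site, had 16.7. Zfp661 was lowest with 0.676. Zfp708 and Zfp456 were not listed, and all of the exonic bases of the first and 98.3% of those of the second lie under other annotated genes.

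The HP1 genes encode the paralogous proteins HP1-beta (Cbx1), HP1-gamma (Cbx3) and HP1-alpha (Cbx5), each with a chromodomain and a chromoshadow domain that pairs HP1 molecules. Together they had 4645 counts. Cbx5 had 1802 counts (179.9 CPM, interval 172 to 188), Cbx1 had 1612 (161 CPM, 153 to 169) and Cbx3 had 1231 (123 CPM, 116 to 129.9). All 3 lay at or above percentile 87.6 of listed genes by CPM, yet their order by level depends on the length used. Their coding sequences are similarly short, with 555 bases in Cbx1, 549 in Cbx3 and 573 in Cbx5, but the coding transcript of Cbx5 is 8803 bases long, against 1251 for Cbx1 and 1889 for Cbx3.

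Cbx1 was the highest HP1 gene per kilobase of exon and of transcript, but not per kilobase of coding sequence or of gene span. Per kilobase of exon it had 37.7 CPM, against 20.5 for Cbx3 and 19.97 for Cbx5, whose Poisson intervals overlap. In the sum of these levels Cbx1 held 48.2%, Cbx3 26.2% and Cbx5 25.6%. Per kilobase of coding transcript the levels were 129 CPM for Cbx1, 65.05 for Cbx3 and 20.4 for Cbx5, so Cbx5 held 9.54%. Per kilobase of coding sequence the order turned, with 314 for Cbx5, 289.9 for Cbx1 and 224 for Cbx3. Per kilobase of gene span, introns included, Cbx3 led with 9.21, before Cbx1 with 8.25 and Cbx5 with 3.73. The exon-based ratio of Cbx1 to Cbx5 was 1.89 (1.76 to 2.02) and that of Cbx3 to Cbx1 was 0.545 (0.505 to 0.587). These intervals cover counting only, and the choice of transcript moves the ratios further than that error.

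Cbx3 shares a larger part of its transcript with other annotated genes than the other members do. The annotation names 8 pseudogenes of Cbx3, on chromosomes 1, 4, 9, 13 and 14, and none under the symbol of any other member. Of the 50-base windows in its coding sequence, 90.0% occur without mismatch in transcripts of other annotated genes, and 28.9% of those in its whole coding transcript do. They fall in 16 pairs of another gene and a transcript type, 13 of them with a pseudogene type. For Cbx1 the share was 0, and for Cbx5 it was 0 in the coding sequence and 0.0228% in the transcript, although the HP1 coding sequences are 71.4% to 72.5% identical to each other over aligned bases. The sources used here do not say how reads with several matches were counted, and the part of this sharing in the Cbx3 level was not tested.

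**Figure D2:**
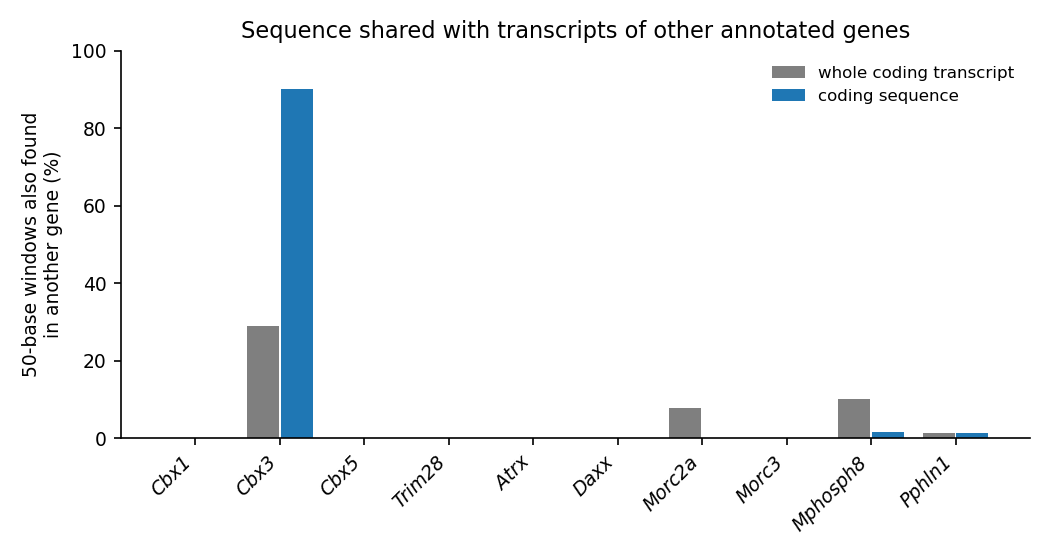
Percentage of 50-base windows of each gene that also occur, without mismatch and on either strand, in an annotated transcript of another gene, for the whole coding transcript (grey) and its coding sequence (blue). Cbx3 stands apart at 28.9% and 90.0%, while Morc2a (7.74%) and Mphosph8 (10.1%) share sequence with overlapping antisense genes.

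Both Cbx3 and Cbx5 start head to head with an hnRNP gene that was expressed at a higher level. The Cbx3 gene (chromosome 6, 51470360 to 51483704, plus strand) has its coding transcript start 704 bases from that of Hnrnpa2b1, and the Cbx5 gene (chromosome 15, 103191544 to 103239816, minus strand) 651 bases from that of Hnrnpa1. Both neighbours encode RNA-binding proteins of pre-mRNA packaging. Hnrnpa2b1 had 6513 counts and 98.7 CPM per kilobase of exon, 4.82-fold above Cbx3 (4.53 to 5.12), and Hnrnpa1 had 8608 counts and 273 CPM per kilobase, 13.6-fold above Cbx5 (12.97 to 14.4). Both neighbours were higher on all 8 scales tried, but by sizes that depended on the length. Hnrnpa2b1 to Cbx3 was 2.74 per kilobase of coding sequence and 7.88 per kilobase of gene span. Hnrnpa1 to Cbx5 was 2.45 and 36.8 on those scales and 4.78 as CPM. Pphln1 starts 63 bases from Zcrb1, a spliceosomal gene with 295 counts. Thus 3 of the 10 genes have a head-to-head coding start within 1 kb, against 9.17% of 15052 genes. Cbx1 (chromosome 11, 96789127 to 96808640, plus strand) has no such neighbour.

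The bases before the starts of Trim28, Cbx1 and Cbx5 show how the promoters of the highest gene and of HP1 genes differ in composition. Each run is the 250 bases before a RefSeq start (GRCm38.p6), 5′ to 3′ on the gene's strand, with capitals marking matches on either strand to the motifs searched: the GC box GGGCGG, the ETS core CCGGAA, CGCNTGCG for NRF1, ANATGGCG for YY1, the cAMP element TGACGTCA, CCAAT and TATAAA. They cover chr7:13023902-13024151, chr11:96788885-96789134 and chr15:103239853-103240102.
Trim28: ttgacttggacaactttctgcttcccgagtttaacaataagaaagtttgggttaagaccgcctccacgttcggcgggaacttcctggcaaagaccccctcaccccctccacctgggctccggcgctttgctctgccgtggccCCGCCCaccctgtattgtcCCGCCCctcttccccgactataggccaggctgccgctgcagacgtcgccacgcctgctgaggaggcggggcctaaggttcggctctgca
Cbx1: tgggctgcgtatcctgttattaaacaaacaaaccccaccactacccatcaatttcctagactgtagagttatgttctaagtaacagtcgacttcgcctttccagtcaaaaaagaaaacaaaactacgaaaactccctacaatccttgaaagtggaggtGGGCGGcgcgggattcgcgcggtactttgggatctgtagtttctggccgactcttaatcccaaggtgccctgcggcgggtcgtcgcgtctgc
Cbx5: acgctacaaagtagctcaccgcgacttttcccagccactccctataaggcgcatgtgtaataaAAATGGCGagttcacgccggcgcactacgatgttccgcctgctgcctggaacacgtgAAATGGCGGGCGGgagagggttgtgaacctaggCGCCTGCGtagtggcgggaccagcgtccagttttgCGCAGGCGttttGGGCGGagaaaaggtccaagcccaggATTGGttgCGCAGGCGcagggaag
Trim28 holds 2 GC boxes and Cbx1 holds 1. Cbx5 holds matches to 4 of the motifs, namely 2 to the YY1 motif, 2 GC boxes, 3 to the NRF1 motif and 1 CCAAT box, and a GC box overlaps a YY1 match. The Cbx3 window, 60.8% of which lies in annotated exons of Cbx3 itself, is not shown.

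The same windows of all 10 genes had a higher median number of CpG than promoters at large. It was 20.5, against 10 over 17485 protein-coding promoters of the same length, whether or not their genes were expressed here. Pphln1 had the most, 46, and Atrx the fewest, 6. A GC box was present in 8 of 10, against 42.7% of promoters, and CCAAT in 6 of 10, against 36.3%. The YY1 motif was present in Cbx5 and Daxx (2.33% of promoters), the NRF1 motif in Cbx5 and Morc3 (9.32%) and the ETS core in Daxx alone (15.2%). No window held TATAAA (12.4% of promoters) or the cAMP element (2.01%). Over 50% of the window lies in annotated exons in 5 of the 10 genes, namely Cbx3, Daxx, Morc2a, Mphosph8 and Pphln1, the last under Zcrb1. In the other 5 genes, a split made after the values were seen, the median number of CpG was 17, a GC box was present in 4 and CCAAT in 3. A match of letters is a description and not a measured binding site.

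Proteins that bind HP1 were expressed across a broad range, and the listed Polycomb relatives of the HP1 genes were below them per kilobase of exon. Of 13 HP1 partners 12 were listed, each at CPM 1 or more and 6 of them at CPM 100 or more. Their median was 9.47 CPM per kilobase of exon. The highest were Lbr, the lamin B receptor of the nuclear envelope, with 69.1, Chd4, the NuRD and ChAHP remodeller, with 63.4, and Incenp, of the chromosomal passenger complex, with 39.8. Lrif1 was lowest with 0.293. Adnp, which joins Chd4 and HP1 in ChAHP, was not listed, and all of its exonic bases lie under other genes. Polycomb CBX proteins have a chromodomain that reads lysine-27 methylation instead. Among them Cbx7 had 11.7 CPM per kilobase of exon, Cbx2 10.7 and Cbx8 1.17, each below the lowest HP1 gene on that scale. Cbx7 and Cbx2 lay at percentiles 72.1 and 70.3 of all listed genes. Per kilobase of coding transcript Cbx7, with 22.5, was above Cbx5. Cbx6, with 95.7% of its exonic bases under other genes, was not listed.

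Atrx and Daxx form a chaperone complex for H3.3, in which Daxx holds the histone and Atrx remodels chromatin. Atrx had 2623 counts (262 CPM, interval 252 to 272), the most after Trim28, and Daxx had 751 (74.97 CPM, 69.7 to 80.5). Atrx is a long gene on chromosome X, 105797615 to 105929403, on the minus strand, with 27 annotated transcripts whose merged exons, retained introns among them, cover 21757 bases. Daxx lies on chromosome 17, 33909414 to 33915590, on the plus strand. Per kilobase of exon the order was the reverse of that by counts, with 12.03 CPM for Atrx and 23.8 for Daxx. The ratio of Atrx to Daxx was 0.506 (0.466 to 0.549) on that scale and 0.909 (0.837 to 0.987) per kilobase of coding transcript, with 25.5 and 28.05 CPM. It was 0.164 per kilobase of gene span. As Atrx is X-linked, its count pools both alleles, and the 129 X chromosome, from which Xist was induced, cannot be told apart from the castaneus one.

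Transcripts of the histone that this complex handles were abundant. The H3.3 genes H3f3b and H3f3a had 161 and 146 CPM per kilobase of exon, and Dek, another H3.3 chaperone, had 73.96. Of 11 genes of H3.3 and its chaperones 10 were listed, all at CPM 10 or more and 4 at CPM 100 or more. Asf1b, which passes H3 and H4 to other chaperones, had 29.5 CPM per kilobase. The lowest was Ubn2, of the HIRA complex, with 1.59, and Hira itself had 2.99 with 85.8% of its exonic bases under other genes. Asf1a was not listed and lies wholly under other genes. Per kilobase of exon, Daxx and Atrx thus stood between the H3.3 genes and the listed HIRA complex genes Ubn1 (9.74), Cabin1 (4.98), Hira and Ubn2. As CPM, Ubn1 (80.6) was above Daxx (74.97).

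MORC proteins are GHKL-type ATPases that compact chromatin. Morc2a, which works with HUSH, had 1127 counts (112 CPM, interval 106 to 119), and Morc3, which represses endogenous retroviruses, had 2163 (216 CPM, 207 to 225). Morc2a lies on chromosome 11, 3649191 to 3690477, and Morc3 on chromosome 16, 93832121 to 93876073, both on the plus strand. Morc3 was the higher on every length scale tried. Per kilobase of exon it had 39.8 CPM against 17.5, and the ratio of Morc2a to Morc3 was 0.441 (0.410 to 0.474). Of the exonic bases of Morc2a, 7.52% lie under the antisense non-coding gene Tug1, and 4.2% of those of Morc3 lie under the antisense gene Gm30881.

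Another gene of the MORC family was higher than both per kilobase of exon. Morc1, known for retroelement silencing in male germ cells, had 2957 counts and 45.6 CPM per kilobase of exon, at percentile 91.8 of all listed genes, and 96.9 per kilobase of coding transcript. The ordering Morc1, Morc3, Morc2a held on both scales. Morc4 had 142 counts and 2.34 CPM per kilobase, and Morc2b, a relative of Morc2a expressed in the testis, had 1 count.

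The HUSH subunits were expressed unequally. Mphosph8, whose chromodomain binds methylated H3, had 1796 counts (179 CPM, interval 171 to 188). Pphln1, which encodes periphilin, had 330 (32.9 CPM, 29.5 to 36.7), the lowest of the 10 genes. Mphosph8 lies on chromosome 14, 56668248 to 56697430, and Pphln1 on chromosome 15, 93398350 to 93491510, both on the plus strand. Per kilobase of exon they had 49.99 and 7.25 CPM, a ratio of 6.90 (6.13 to 7.78), and per kilobase of coding sequence the ratio was 2.42. Tasor, the scaffold that joins them, had 536 counts and 3.93 CPM per kilobase of exon, so Mphosph8 exceeded it 12.7-fold (11.6 to 14.05) and Pphln1 1.85-fold (1.6 to 2.12). Mphosph8 was above Tasor on all 8 scales, with 5.85 per kilobase of coding sequence and 3.35 as CPM. Pphln1 was not, with a ratio to Tasor of 0.616 as CPM and 0.362 per kilobase of gene span. Of the exonic bases of Mphosph8, 10.7% lie under the antisense non-coding gene Gm16973, and of those of Tasor 18.1% lie under other genes.

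The other genes of the HUSH list were all listed at CPM 10 or more. Of these 8 genes, Tasor included, 3 were at CPM 100 or more and the median was 4.05 CPM per kilobase of exon. The highest were Resf1, which helps Setdb1 silence retroelements, with 18.98, and Safb, an RNA- and chromatin-binding protein, with 18.1. Atf7ip, the nuclear partner of Setdb1, had 2.70, and its paralog Atf7ip2 had 2.10 with 53.1% of its exonic bases under other genes. Tasor2, the relative of Tasor, was lowest with 1.20.

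Ordered per kilobase of exon, the 10 genes ran from Trim28 (358 CPM) through Mphosph8 (49.99), Morc3 (39.8), Cbx1 (37.7), Daxx (23.8), Cbx3 (20.5), Cbx5 (19.97), Morc2a (17.5) and Atrx (12.03) to Pphln1 (7.25). The intervals of Morc3 and Cbx1 overlap, as do those of Cbx3 and Cbx5, and the other neighbours are separate by counting error. Trim28 was first and Pphln1 last under all 8 scales tried, CPM without a length included. Per kilobase of coding sequence, however, the intervals of Pphln1 (25.8 to 32.1) and Daxx (31.4 to 36.3) overlap. Atrx moved between ranks 2 and 9, Daxx between 2 and 9 and Cbx5 between 2 and 8.

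**Figure D3:**
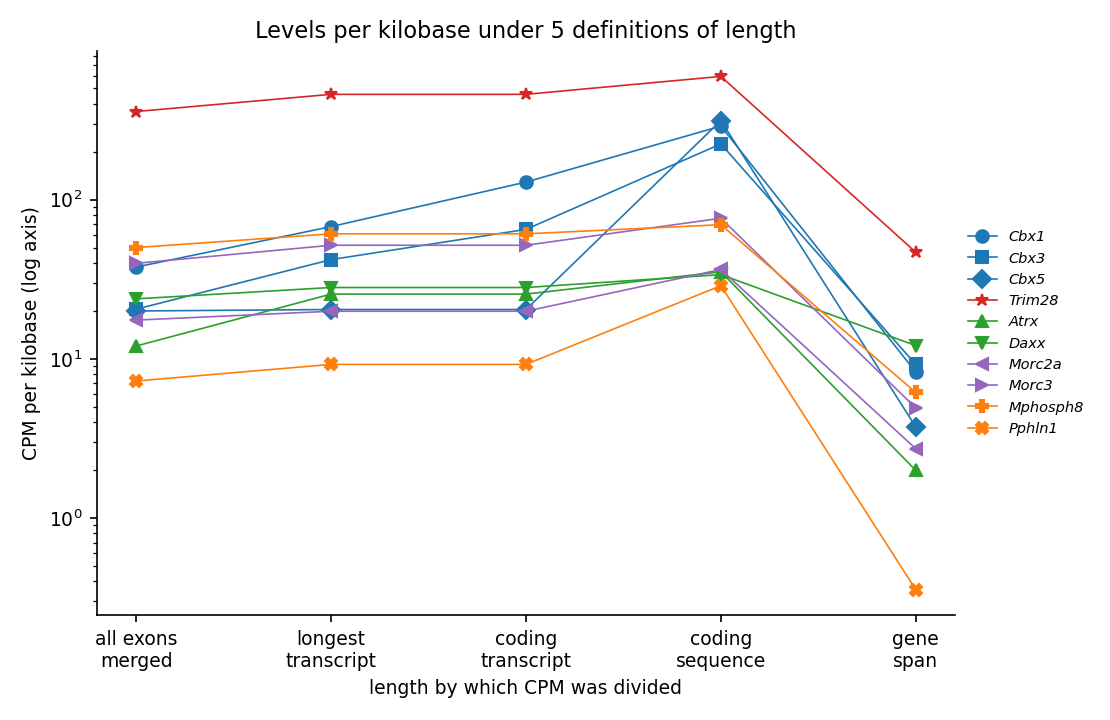
CPM per kilobase (log axis) of the 10 genes when CPM is divided by merged exons, the longest transcript, the transcript with the longest coding sequence, that coding sequence, or the whole gene span. Trim28 is highest and Pphln1 lowest at each position, and Cbx5 moves from 20.4 per kilobase of coding transcript to 314 per kilobase of coding sequence.

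Among the listed genes of H3 lysine-nine methylation, the mark HP1 binds, Ehmt2 was highest per kilobase of exon. Of 8 genes of H3 lysine-nine methylation 6 were at CPM 10 or more, and the median was 6.35 CPM per kilobase of exon. Ehmt2, or G9a, had 54.4, Setdb1 15.4 and Ehmt1, the partner of Ehmt2, 11.2. Zfp644, a partner of Ehmt2, had 2 counts and Suv39h1 had 4, and 97.7% and 97.3% of their exonic bases lie under other genes. Suv39h2 had 103 counts, with 77.6% of its exonic bases under other genes. The part of this overlap in the low counts of Zfp644, Suv39h1 and Suv39h2 was not tested.

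SUMO genes and a list of other factors that restrain retroelements had medians near or above the 22.1 of the 10 genes per kilobase of exon, and below their 170.1 as CPM. SUMO, a small protein modifier, is attached to Trim28 and Pml and read by Daxx. The 12 SUMO genes had a median of 32.5 CPM per kilobase of exon and of 137 CPM, and 7 of them reached CPM 100. Among those 7, Sumo2 had 114 CPM per kilobase of exon and Sae1, of the activating enzyme, had 107. Sumo3 had 1 count, with 97.3% of its exonic bases under other genes. The other restraining factors had a median of 22.8 CPM per kilobase of exon and of 141 CPM, and 11 of 19 genes reached CPM 100. Per kilobase of exon, Mov10, an RNA helicase that restrains LINE elements, had 166 CPM. On that scale Uhrf1, which guides maintenance DNA methylation, had 150.5 and Tex19.1, a pluripotency and germ cell gene, had 80.4. The lowest was the piRNA pathway gene Mael with 1.21, and Trex1, a DNA exonuclease lying wholly under other genes, was not listed.

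**Figure D4:**
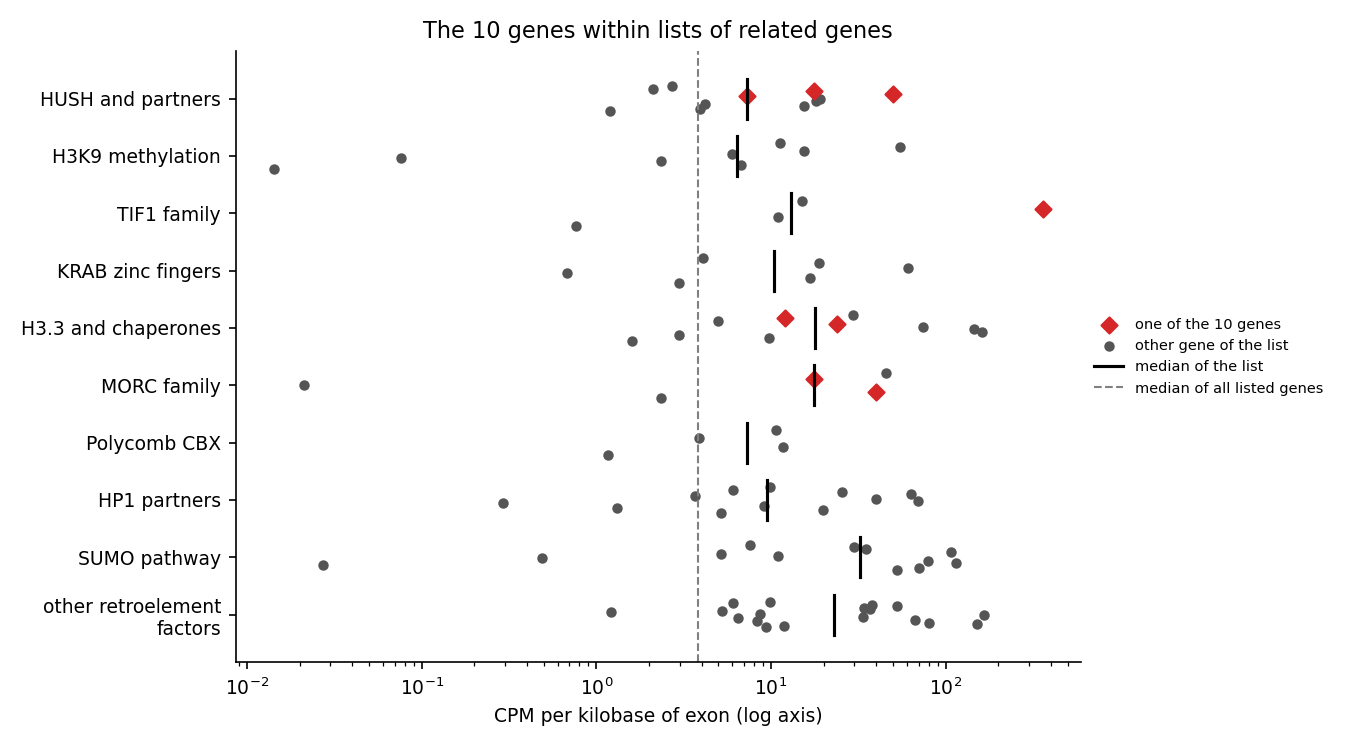
CPM per kilobase of exon (log axis) of listed genes in 10 lists of related genes; each point is a gene, red diamonds are among the 10 genes, black bars are list medians and the dashed line is the median of all listed genes (3.8). Trim28 lies to the right of every other point, at 358.

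Genes missing from the related lists shared a position under other genes. Of 86 related genes other than the 10, 80 were listed and 6 were not: Cbx6, Asf1a, Zfp708, Zfp456, Adnp and Trex1. In each of the 6, at least 95.7% of exonic bases lie under another annotated gene. Over the annotation, 11.4% of 1715 protein-coding genes that are covered by 95% or more were listed, against 73.5% of 20209 covered by less. None of the 10 genes is near that state, the highest being Mphosph8 at 10.7%. A gene that was not listed is therefore described as such and not as silent.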

How the data were processed

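Poly(A) RNA-seq of 2 libraries of 1 group was analysed. The file deposited by the authors holds raw counts for protein-coding gene symbols with at least 1 count. The submitters' processing notes name the GRCm38.p6 build, the tools HISAT2, SAMtools and Trimmomatic 0.38, and featureCounts from Subread 1.6.4. The counted feature, strand setting and annotation release are not stated in the sources used here. The rows follow the count per base of gene span (rho 0.9999 across genes, against 0.920 per base of exon), and the span that each member's row implies differs from that in GENCODE M21 by at most 0.0991%.

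Counts were scaled by the column total to CPM. Symbols were matched to M21 directly (14896) or through RefSeq synonyms (156), and the 75 unmatched ones were given no length. Levels were compared between genes per kilobase. Poisson and conditional binomial 95% intervals cover counting error only. The members, lists and pairs were chosen with earlier results of these data known, and all ratios of Trim28, of neighbours and to Tasor were added later. All members were to be named, with the 3 highest, the lowest and every unlisted gene of each list. Some further genes were named after their values were seen, and a few items that the rule names are not reported here. Sequences came from RefSeq promoter windows and M21 transcripts. The functions were tested on simulated counts. Software was Biopython 1.88, matplotlib 3.10.9, scipy 1.17.1, numpy 2.4.6, pandas 2.3.3 and Python 3.11.15.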

Additional observations from a re-analysis of the deposited data

How the results depend on the processing

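No paired analysis was possible because the counts are 1 column of 1 group, and for the same reason neither library could be left out. All 10 genes stayed at CPM 10 or more and 8 at CPM 100 or more when ribosomal protein genes or the 20 highest genes were left out of the total. Of 45 pairs of members, between 31 (CPM without a length) and 45 kept their order under the 7 other scales. The median of the members against that of all listed genes, 5.83 per kilobase of exon, stayed above 1 throughout. It was 6.85 with the longest transcript, 6.35 with coding length, 9.31 as CPM, 7.04 with the coding transcript, 5.12 with exonic bases outside other genes, 9.02 with gene span, 3.48 against genes at CPM 1 or more, 3.56 against genes at 10 or more counts, and 5.40 to 6.26 when any 1 member was left out.

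Scales that use coding transcript, exon bases outside other genes or gene span were added after the data were seen. Ratios depended on the length by construction. With the longest transcript, Cbx3 to Cbx1 was 0.620, Cbx3 to Cbx5 2.06, Cbx1 to Cbx5 3.31, Atrx to Daxx 0.909 and Morc2a to Morc3 0.385. With coding length the same ratios were 0.772, 0.713, 0.924, 1.04 and 0.477, and Mphosph8 to Pphln1 was 2.42. As CPM they were 0.764, 0.683, 0.895, 3.49, 0.521 and 5.44. The ratios of Cbx3 and Cbx1 to Cbx5 and of Atrx to Daxx thus changed side of 1 with coding length and as CPM. With the coding transcript, Cbx3 to Cbx5 was 3.18, Cbx1 to Cbx5 6.29, Atrx to Daxx 0.909 and Morc2a to Morc3 0.385. With gene span the 6 ratios were 1.12, 2.47, 2.21, 0.164, 0.555 and 17.4, so that Cbx3 to Cbx1 also changed side. Without exonic bases under exons of other genes Morc2a to Morc3 was 0.476. Pphln1 to Tasor, 1.85 per kilobase of exon, changed side as CPM (0.616) and with gene span (0.362). Depth limited little here, as the widest interval, that of Pphln1, had a half-width of 10.9% of its value.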
